A study of Rattus norvegicus with 12 samples.

Results

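Chemokines are small secreted proteins that steer leukocytes, and the 10 described here are Ccl2, Ccl3, Ccl4, Ccl5, Ccl6, Ccl7, Cxcl1, Cxcl10, Cxcl12 and Cx3cl1, followed in rat ventricle after a closed and reopened coronary artery. They were found on the array as probe sets (groups of short probes read as a single signal) whose annotation gives exactly 1 gene symbol equal to a member. This gave 11 probe sets of 15866 for 9 genes, of which Cxcl12 has 3; Ccl7 had no probe set of this kind and has no value here. None of the 10 is a receptor, so the chemokine receptors on the same array are given after the ligands. Of the 11 probe sets, 10 for 8 genes were bright enough to be tested among 10527, while that of Cxcl10 was dim on all 12 arrays.

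Ventricles of 12 rats were measured, 1 array per rat by the labels. The 2 d IR group (ischaemia and reperfusion, replicates 69, 73 and 76) had the left anterior descending coronary artery, which feeds the front wall of the left ventricle, closed for 30 min and was sampled at day 2. The 2 d sham group (replicates 71, 72 and 74) was sampled on that day after surgery with no occlusion. The 7 d IR group (replicates 44, 47 and 48) had the 30 min occlusion and was sampled at day 7, and the 7 d sham group (replicates 80, 81 and 82) had surgery with no occlusion and was sampled at day 7. No group carries a genetic change in the labels, and strain, age and sex are not stated by the labels or the design. The region of the ventricle that was taken relative to the injured wall is not stated either.

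Chemokines bind receptors coupled to G proteins on passing leukocytes and guide them along a gradient out of the blood. In an infarcted heart, Cxcl1 and its relatives are known to draw neutrophils early, Ccl2 and Ccl7 to draw monocytes through the receptor Ccr2, and Cxcl12 to hold and recruit cells that carry Cxcr4. Many inflammatory chemokine genes are induced through the transcription factor NF-kB, Cxcl10 also through interferon, and Cxcl12 is made by stromal cells at rest as well.

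The genes of the Ccl members (Ccl2, Ccl3, Ccl4, Ccl5, Ccl6 and Ccl7) all lie on rat chromosome 10, those of Cxcl1 and Cxcl10 on chromosome 14, that of Cxcl12 on chromosome 4 and that of Cx3cl1 on chromosome 19, in RefSeq on assembly GRCr8. The promoters of 3 members are shown as the 250 bases before the gene start (RefSeq, GRCr8, 5′ to 3′ on the gene's strand) because their signals took 3 courses. Cxcl1 was higher in 2 d IR than in 2 d sham ventricles, Ccl6 was higher in IR ventricles on both days, and Cxcl10 was dim throughout. Capitals mark matches, searched on both strands, to GGAANTTCC (the core of a form of the NF-kB site), TGANTCA and TATAAA (the TATA box). TGANTCA is a loose form of the AP-1 site, with any base allowed in the middle. These letters were chosen after the sequences had been read.
Cxcl1, chr14:17479322-17479571, minus strand: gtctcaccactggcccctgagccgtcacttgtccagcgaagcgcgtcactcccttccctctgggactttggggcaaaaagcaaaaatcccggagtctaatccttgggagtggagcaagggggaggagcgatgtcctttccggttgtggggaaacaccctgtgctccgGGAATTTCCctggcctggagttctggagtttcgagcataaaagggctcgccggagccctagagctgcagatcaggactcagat
Cxcl10, chr14:15988816-15989065, plus strand: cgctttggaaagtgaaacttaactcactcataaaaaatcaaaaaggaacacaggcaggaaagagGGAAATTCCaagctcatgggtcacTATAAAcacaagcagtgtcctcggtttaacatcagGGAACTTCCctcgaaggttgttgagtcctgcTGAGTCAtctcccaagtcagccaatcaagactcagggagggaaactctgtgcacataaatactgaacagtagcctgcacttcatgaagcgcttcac
Ccl6, chr10:68883367-68883616, minus strand: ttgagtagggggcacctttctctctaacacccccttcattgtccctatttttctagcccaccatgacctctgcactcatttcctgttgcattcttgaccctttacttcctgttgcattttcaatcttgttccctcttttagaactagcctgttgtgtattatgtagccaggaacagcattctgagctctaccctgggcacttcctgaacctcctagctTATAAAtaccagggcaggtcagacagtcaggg
Cxcl1 holds GGAATTTCC 83 to 75 bases before its start and neither of the other motifs. Cxcl10 holds GGAAATTCC 186 to 178 bases before its start, GGAACTTCC at 127 to 119, the AP-1 match TGAGTCA at 96 to 90 and TATAAA at 162 to 157. Ccl6 holds only TATAAA, 32 to 27 bases before its start. Over 33469 rat promoters of this length, 0.669% hold GGAANTTCC, 6.34% hold TGANTCA and 12.9% hold TATAAA. Of the other 3 members with a promoter in the table, Ccl7 holds TGATTCA and TATAAA, Cx3cl1 holds TATAAA and Cxcl12 none of the motifs; Ccl2, Ccl3, Ccl4 and Ccl5 have no entry. No 2 of these matches overlap. A match is a stretch of letters, and binding was not measured.

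Signals below are intensities on the authors' linear scale, always in the order of the replicate numbers above, and changes are differences of log2(signal + 195.45), IR minus sham or 7 d minus 2 d, tested with limma over all 12 arrays. An array is called dim for a gene where the signal lies at or under that array's 40th percentile, which was 447.88 to 514.76. Array medians were 637.3 to 719, and arrays correlated with the others of their group at a mean r of 0.957 to 0.970. Replicate 69 (2 d IR) and replicate 82 (7 d sham) stood apart on the first principal component, at -18.29 against 4.11 and -0.18 for the other 2 d IR arrays and at 23.61 against 1.06 and 1.14 for the other 7 d sham arrays. On that component replicate 82 lay among the 2 d sham arrays (17.65 to 25.27), and replicate 69 lay next to the 7 d IR arrays (-31.72 to -20.04). The reason was not tested. Summed signals of 11 ventricular muscle genes were high on every array, at 388820 or more. In a piece of tissue, more cells of a type and more RNA per cell cannot be told apart. The p-values set each difference against the spread between these rats, as limma estimates it with help from all probe sets tested.

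At 2 d, Ccl2, Cxcl1 and Ccl6 were higher in IR than in sham ventricles. At 7 d, Ccl6 was higher, and so was the dimmest of the 3 probe sets of Cxcl12, while the brightest, which stands for that gene in the counts, did not pass. At 2 d, 3 of the 8 member genes tested were called higher at an adjusted p under 0.05 and 0 lower, against 1.88% of all probe sets called higher and 0.589% lower. In 4 of 8 (the same 3 and Ccl4) every IR array lay above every sham array, against 13.9% of all probe sets. The median log2 change over the 8 genes was 0.39, against 0.00 over all probe sets tested. At 7 d, 1 of 8 was called higher, against 6.22% of all probe sets, and its arrays did not overlap, against 16.6%; the median was 0.03, against 0.01, so that the count of members at 7 d is close to that over the array. The calls at 2 d depended on single arrays: 260 probe sets were called with all arrays, 2 without replicate 69, 71 or 72 in turn, 100 without 74, 147 without 76, 501 without 82 and 515 without 73, and the members called ran from 0 to 3 when any 1 array was dropped. The count over all probe sets at 7 d moved too, from 1271 with all arrays to 175 without replicate 82, 474 without 44 and 502 without 47. In each fit that dropped a single array, 1 member was called at 7 d.

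**Figure D1:**
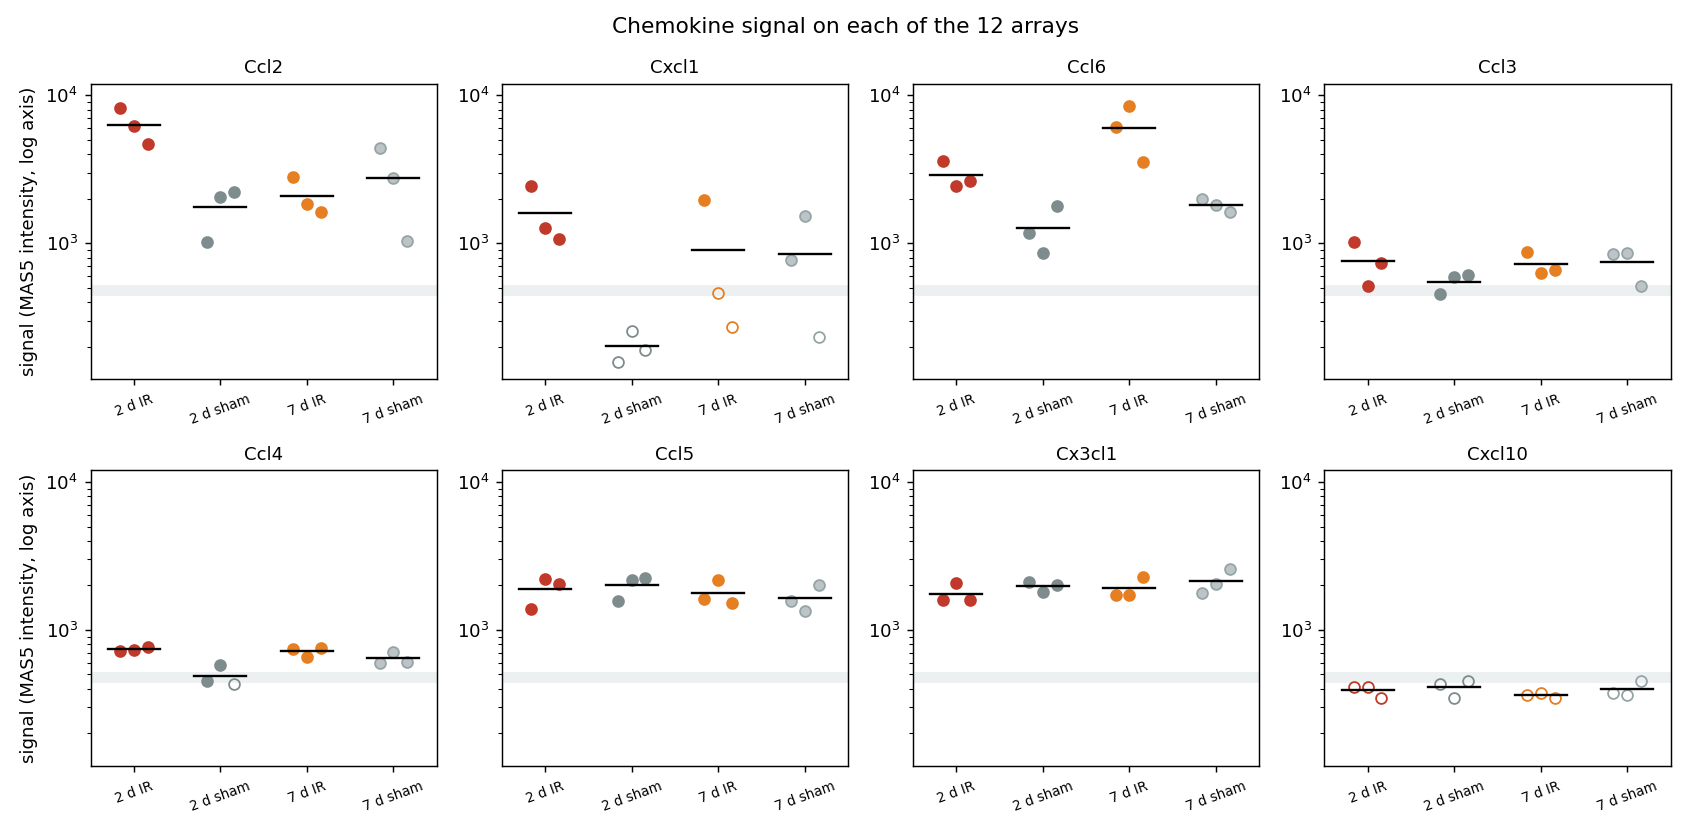
Signal (log axis) of each chemokine on each array in 2 d IR, 2 d sham, 7 d IR and 7 d sham ventricles, with open circles for dim arrays, a bar for the group mean and a grey band for the range of the dim lines (447.88 to 514.76). Ccl2 is high in the 2 d IR group and Ccl6 in both IR groups, and Cxcl10 is open on all 12 arrays. Cxcl1 is higher in 2 d IR than in 2 d sham, while replicates 44 (7 d IR) and 81 (7 d sham) lie within its 2 d IR range.

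Ccl2, the monocyte attractant that acts on Ccr2, had signals of 8187, 6165 and 4652 in 2 d IR ventricles and 1021, 2047 and 2207 in 2 d sham ventricles. It had 2798, 1855.5 and 1625 in 7 d IR ventricles and 4434, 2781 and 1042 in 7 d sham ventricles. All 3 of the 2 d IR arrays lay above every other array; the other 3 groups overlapped one another. The mean was 6335 ± 1774 in 2 d IR ventricles, against 1758 ± 643 in 2 d sham ventricles (SD, n = 3 each). Ccl2 rose 3.40-fold at 2 d (log2 change 1.77, SE 0.39, adjusted p = 0.0325). At 7 d its change of -0.20 (95% interval -1.03 to 0.62, adjusted p = 0.775) did not pass the test. Between the days, Ccl2 was lower in 7 d IR than in 2 d IR ventricles (log2 change -1.51, SE 0.39, adjusted p = 0.0446), and in sham ventricles the change was 0.46 (-0.36 to 1.28, adjusted p = 0.729). The IR effect at 7 d minus that at 2 d was -1.97 (SE 0.55, adjusted p = 0.413), which did not pass, so that the effects of the days are not shown to differ.

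The 2 d call for Ccl2 was kept in 8 of 12 fits that dropped a single array and lost without replicate 69 (log2 change 1.57, adjusted p = 0.183), 71 (1.46, 0.112), 72 (1.90, 0.0879) or 74 (1.95, 0.0505). Without replicates 69 and 82 together it was 1.57 (adjusted p = 0.0353). It was also lost with no filter on dim probe sets (adjusted p = 0.0669), with no intensity trend in the fit (0.0625) and with the 7 d sham group as control (log2 change 1.31, adjusted p = 0.125). The 7 d IR against 2 d IR call was kept in 3 of 12 such fits. It was lost without replicate 69, 73, 76, 72, 74, 44, 47, 48 or 81, at log2 changes of -1.72 to -1.31 and adjusted p-values of 0.0535 to 0.139, and was -1.31 (0.0206) without 69 and 82 together. That call was lost too with the pseudocount divided by 2 (adjusted p = 0.0506), no filter (0.0912) or no trend (0.0768).

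Cxcl1, a neutrophil attractant that acts on Cxcr2, had signals of 2428, 1276 and 1071.5 in 2 d IR ventricles, against 157, 256 and 189 in 2 d sham ventricles. The 2 d sham arrays were all dim and all below the 2 d IR arrays. In 7 d IR ventricles it had 1967, 462 and 269.7, and in 7 d sham ventricles 765, 1520.0 and 233.5. At day 7 a single IR array (replicate 44) and 2 sham arrays (80 and 81) were above the dim line, and the groups overlapped. Since 2 d sham was dim, the increase at 2 d is given as at least 3.23-fold in IR over sham ventricles, with group means of 1592 ± 731 and 201 ± 50.4 (SD, n = 3 each). On the fitted scale it rose (log2 change 2.11, SE 0.51, adjusted p = 0.0448). At 7 d the change was -0.03 (95% interval -1.13 to 1.06, adjusted p = 0.973), and the 7 d minus 2 d difference of the effects was -2.14 (SE 0.72, adjusted p = 0.543); neither passed.

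The Cxcl1 call was kept in 4 of 12 fits that dropped a single array. It was lost without replicate 69 (log2 change 1.79, adjusted p = 0.237), 71 (2.03, 0.122), 72 (2.21, 0.12), 74 (2.09, 0.0897), 76 (2.32, 0.0592), 47 (2.11, 0.0569), 80 (2.11, 0.0543) or 73 (2.21, 0.0503), and without 69 and 82 together (1.79, 0.113). It was also lost with no filter on dim probe sets (adjusted p = 0.0883), no intensity trend (0.0764) or 4 times the pseudocount (log2 change 1.23, adjusted p = 0.0566). With the 7 d sham group as control the change was 0.93 (adjusted p = 0.382), and with both sham groups 1.52 (0.0719). The 7 d sham arrays were higher than the 2 d sham arrays on average, with a change of 1.18 (95% interval 0.08 to 2.27, adjusted p = 0.496), which did not pass. The 2 sham groups overlapped, with 233.5 on replicate 82 (7 d) below 256 on replicate 72 (2 d).

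Ccl6, a chemokine of rodents that in mice binds Ccr1 and is made by macrophages, was the member with a call on both days. Its signals were 3601.5, 2453 and 2643 in 2 d IR ventricles and 1175.5, 854 and 1779 in 2 d sham ventricles. They were 6136, 8477 and 3549.8 in 7 d IR ventricles and 1989.5, 1819 and 1615 in 7 d sham ventricles. The IR arrays lay above the sham arrays on each day without overlap, and in fact every IR array lay above all 6 sham arrays. Ccl6 rose 2.16-fold at 2 d (log2 change 1.11, SE 0.27, adjusted p = 0.0436) and 2.96-fold at 7 d (log2 change 1.56, SE 0.27, adjusted p = 0.00669). Averaged over the days it rose by 1.34 on the log2 scale (SE 0.19, adjusted p = 0.00113). It was the only member gene called in that average, by the brightest probe sets, against 12.4% of all probe sets called higher. The difference of the effects, 7 d minus 2 d, did not pass the test (0.45, SE 0.38, adjusted p = 0.854).

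The 7 d call for Ccl6 was kept in each of the 12 fits that dropped a single array (log2 change 1.29 to 1.89), and was 1.49 (adjusted p = 0.0196) without replicates 69 and 82 together. The 2 d call was kept in 6 of the 12. It was lost without replicate 69 (0.95, adjusted p = 0.233), 72 (0.89, 0.167), 71 (1.09, 0.114), 76 (1.16, 0.0673), 80 (1.11, 0.0526) or 81 (1.11, 0.0527), and without 69 and 82 together (0.95, 0.177). It was also lost with median centring (1.05, adjusted p = 0.0504), quantile normalization (1.06, 0.0564), 4 times the pseudocount (0.86, 0.0566), no filter (0.0819), no trend (0.0764), the 7 d sham group as control (0.61, 0.279) or both sham groups (0.86, 0.0533). The 7 d call was kept under each of these settings, with the 2 d sham group as the other day's control. Between the IR groups, 7 d minus 2 d, the change was 0.95 (95% interval 0.38 to 1.52, adjusted p = 0.0699). That change passed without replicate 48, which has the lowest 7 d IR signal (1.28, adjusted p = 0.0113), and without 69 and 82 together (1.11, 0.0499).

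Markers of leukocytes are set beside these 3 ligands here. Of 19 monocyte and macrophage markers, all tested, 11 were called higher at 2 d, where Ccl2, Cxcl1 and Ccl6 rose, and 14 at 7 d, where of the 3 only Ccl6 did, against 1.88% and 6.22% of all probe sets; 0 were lower. Their summed signal was 116454 to 182107 in 2 d IR and 52108 to 75184 in 2 d sham ventricles, and 129889 to 147345 in 7 d IR and 50729 to 88259 in 7 d sham ventricles; none of the 19 was dim on all arrays. Within the 2 d IR group, replicate 69 had the highest Ccl2, Cxcl1 and Ccl6 signals and also the highest macrophage sum. Of 9 neutrophil markers 3 were tested. At 2 d 0 were called by limma (adjusted p of 0.056 for S100a9 and 0.132 for S100a8), against 2.47% of all probe sets in either direction. At 7 d 1 was called higher (S100a8), against 6.22%. Mmp9, Np4, RatNP-3b and Defa5 were dim on all arrays. The neutrophil sum was 11929.9 to 20589.3 in 2 d IR and 8109.5 to 11626.3 in 2 d sham ventricles, and 16560.8 to 50356.1 in 7 d IR and 9854.9 to 45481.2 in 7 d sham ventricles. Of 18 lymphocyte markers 9 were tested. Of these 0 were called at 2 d and 1 (Cd4) was called higher at 7 d, against the same 2.47% and 6.22%. Cd2, Cd3d, Cd3e, Cd79b, Gzmb and Klrd1 were dim on all arrays, and the Cd4 call alone is not read as a change in lymphocytes. The lymphocyte sum was 6304.4 to 8005.6 in 2 d IR and 7144.4 to 7852.7 in 2 d sham ventricles. It was 7723.3 to 10159.6 in 7 d IR and 7076.9 to 7834.6 in 7 d sham ventricles. Of 11 ventricular muscle genes, 1 (Tnni3) was called lower at 2 d and 6 at 7 d, against 0.589% and 5.85% of all probe sets, and 0 higher. Their summed signal was 403401 to 536672 in 2 d IR and 543502 to 607443 in 2 d sham ventricles, and 388820 to 429567 in 7 d IR and 508754 to 595721 in 7 d sham ventricles, without overlap on either day. The part of these cells in the ligands' increases was not tested.

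**Figure D2:**
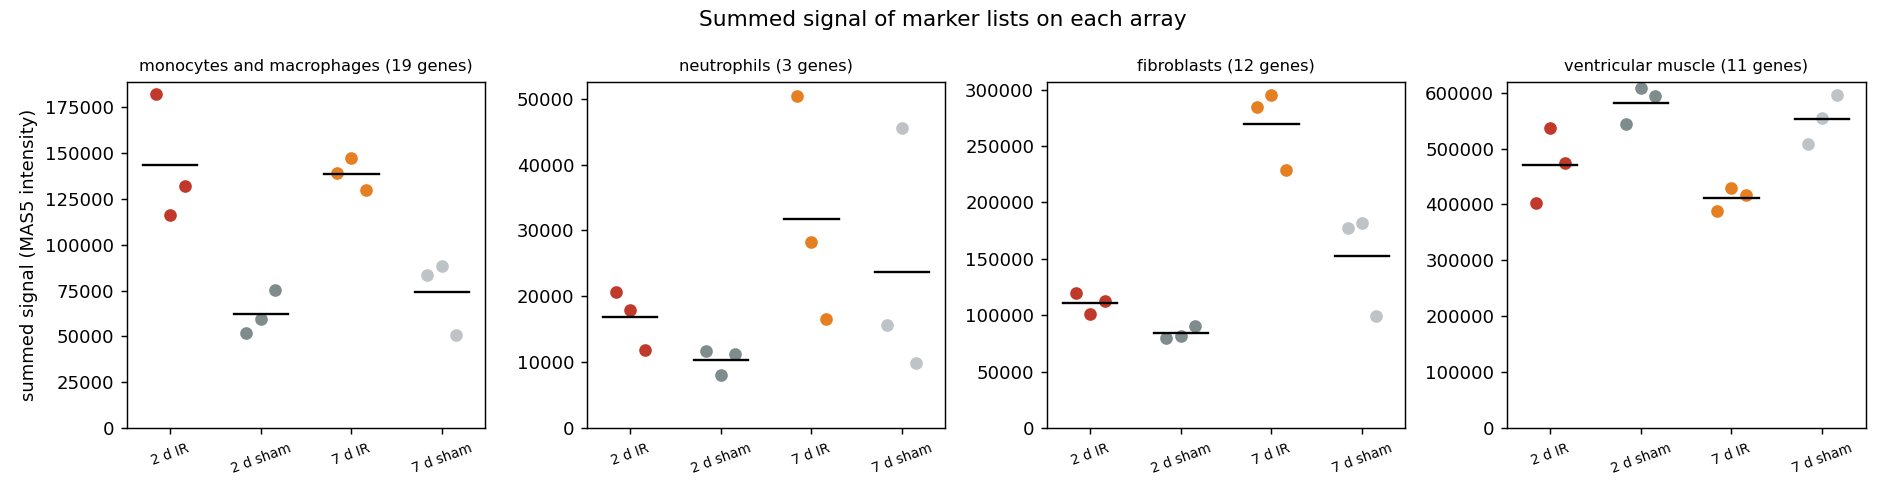
Summed signal of the tested marker genes of 4 cell types on each array, in 2 d IR, 2 d sham, 7 d IR and 7 d sham ventricles. The macrophage sum lies higher and the muscle sum lower in IR than in sham on both days, without overlap, while the fibroblast sum is highest in 7 d IR, where it runs from 228882 to 295738.

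The genes most like the 3 called ligands across arrays were found by Pearson's r of the log2 signal over the 12 arrays among 7712 other genes, as a description. Cxcl1 was most like Il6 (r = 0.954), which encodes the cytokine interleukin 6, then Capza1 (0.945) and Sipa1 (0.927). Ccl6 was most like Lyve1 (0.953), a hyaluronan receptor of lymphatic vessels and of some tissue macrophages, then Dap (0.953) and Adcy3 (0.947). Ccl2 was most like Gdpd5 (0.916), LOC100912041 (0.916) and Arg1 (0.914), the last an arginine-degrading enzyme of macrophages. Il6 had 859.6, 423.5 and 505 in 2 d IR and 31.6, 155 and 45.2 in 2 d sham ventricles, and 1046, 180.0 and 109 in 7 d IR and 662, 857 and 129.6 in 7 d sham ventricles. It shared with Cxcl1 the high replicates 44, 80 and 81 at day 7. Il6 was dim on all 2 d sham arrays and on replicates 73, 47, 48 and 82, so no fold is given for it. Its 2 d change on the fitted scale was 1.53 (95% interval 0.47 to 2.58, adjusted p = 0.0998), which did not pass. Arg1 had 1718, 1127 and 877 in 2 d IR against 262, 404 and 422 in 2 d sham ventricles. In 7 d IR ventricles it had 596, 491 and 422, and in 7 d sham ventricles 507, 343 and 143. Arg1 was dim on every sham array and on replicate 48, and met the filter for testing only with the 2 d IR arrays. Lyve1 had 1492, 904 and 1344 in 2 d IR and 600.1, 448.5 and 945.5 in 2 d sham ventricles, and 2075, 2567 and 1165 in 7 d IR and 1222, 1095 and 789 in 7 d sham ventricles, with replicate 47 the highest, as for Ccl6. Among the members themselves, Ccl2 and Cxcl1 were the most alike (r = 0.808), and Ccl2 and Ccl6 were less so (r = 0.236). The 12 points share the arrays' groups, scaling and cell makeup.

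Ccl4, which attracts monocytes and T cells, had signals of 716, 729 and 772 in 2 d IR ventricles and 454, 582 and 432 in 2 d sham ventricles. The 2 groups did not overlap, and replicate 74 was dim. The change of 0.45 (95% interval 0.14 to 0.77, adjusted p = 0.0968) did not pass. In 7 d IR ventricles Ccl4 had 747, 656 and 754, and in 7 d sham ventricles 599.7, 714 and 611.5; these overlapped (0.13, 95% interval -0.18 to 0.44, adjusted p = 0.615). All 12 signals were between 431.9 and 772.4, close to the dim lines. The lowest group by mean was 2 d sham, and all 3 of its arrays lay below every other array. The average over the days was 0.29 (95% interval 0.07 to 0.51, adjusted p = 0.0555).

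Ccl3, a related ligand that binds Ccr1, had signals of 1014, 514 and 735 in 2 d IR ventricles and 457, 586 and 608 in 2 d sham ventricles. It had 873, 624 and 657 in 7 d IR ventricles and 849.5, 865 and 516 in 7 d sham ventricles. IR and sham arrays overlapped on both days, and replicate 69 held the highest signal and replicate 71 the lowest. The change was 0.32 at 2 d (95% interval -0.13 to 0.78, adjusted p = 0.414) and -0.03 at 7 d (95% interval -0.48 to 0.43, adjusted p = 0.948).

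Ccl5, known from T cells and platelets and also called RANTES, had 1377, 2218 and 2039 in 2 d IR ventricles and 1571, 2187 and 2244 in 2 d sham ventricles. It had 1609.5, 2192.5 and 1511 in 7 d IR ventricles and 1567, 1349 and 2025 in 7 d sham ventricles. All 4 groups overlapped one another, within 1349 to 2244. The change was -0.09 at 2 d (95% interval -0.51 to 0.33, adjusted p = 0.841) and 0.09 at 7 d (95% interval -0.33 to 0.52, adjusted p = 0.798), and an increase or decrease of more than 0.52 on the log2 scale lies outside both intervals.

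Cx3cl1 (fractalkine), which sits in the membrane of endothelial and other cells until it is cut off, had 1587, 2083 and 1588 in 2 d IR ventricles and 2097, 1818 and 2016 in 2 d sham ventricles. It had 1720.0, 1722.5 and 2284 in 7 d IR ventricles and 1766, 2047 and 2604 in 7 d sham ventricles. Groups overlapped, with the IR mean the lower on each day. The change was -0.16 at 2 d (95% interval -0.50 to 0.17, adjusted p = 0.601) and -0.14 at 7 d (95% interval -0.48 to 0.19, adjusted p = 0.598). Across the 12 arrays its log2 signal ran against that of Ccl2 (r = -0.639).

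Cxcl10, induced by interferon and the ligand of Cxcr3, was dim on all 12 arrays and was not tested. Its signals were 414, 409 and 348 in 2 d IR ventricles and 429, 347 and 455 in 2 d sham ventricles. They were 362, 376 and 348 in 7 d IR ventricles and 373, 366 and 451 in 7 d sham ventricles, so that all lay between 346.7 and 455 with full overlap. A signal in this range bounds the level and gives no order. The gene of interferon gamma, Ifng, and that of tumour necrosis factor, Tnf, were likewise dim on all arrays.

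**Figure D3:**
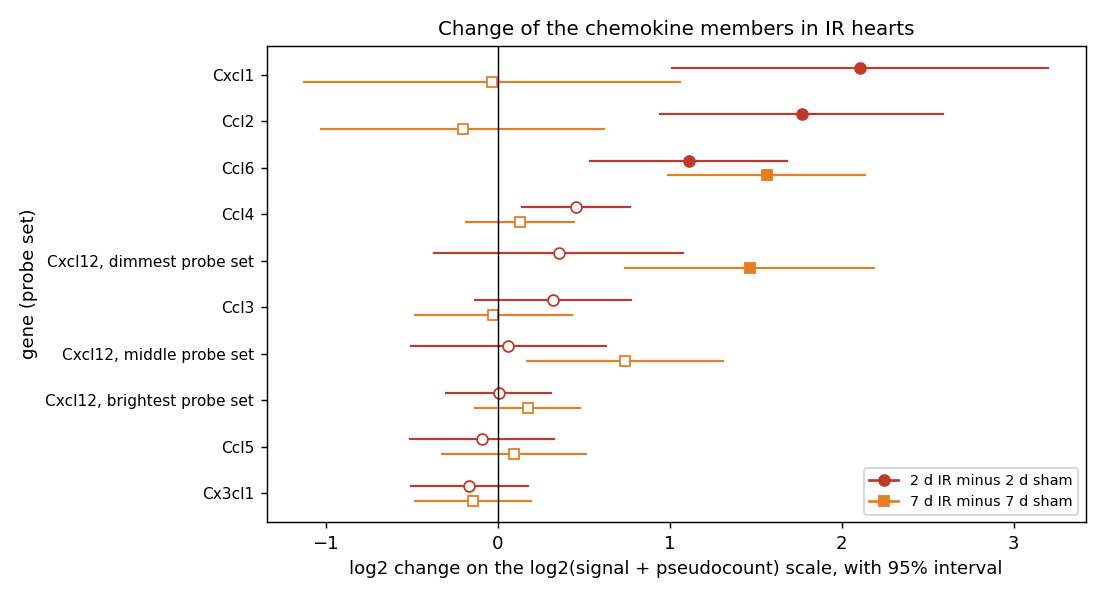
Log2 change of each tested member probe set, IR minus sham, at 2 d (circles) and 7 d (squares), with 95% intervals; filled markers passed the test over all 10527 probe sets. Ccl2 and Cxcl1 pass at 2 d, Ccl6 on both days and the dimmest Cxcl12 probe set at 7 d.

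Cxcl12 had 3 probe sets, all with their lowest signals at day 2 and their highest group mean in 7 d IR ventricles. The brightest had 6419.5, 6919 and 6785 in 2 d IR ventricles and 7532, 6190.2 and 6392 in 2 d sham ventricles. It had 11893, 9276 and 8279 in 7 d IR ventricles and 7319, 9823 and 8785 in 7 d sham ventricles. IR and sham overlapped on each day, and the change was 0.01 at 2 d (95% interval -0.30 to 0.31, adjusted p = 0.991) and 0.17 at 7 d (95% interval -0.13 to 0.48, adjusted p = 0.468).

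The middle probe set of Cxcl12 had 2602, 2753 and 2794.5 in 2 d IR ventricles and 2675, 1782 and 3631 in 2 d sham ventricles. It had 10064, 8579.9 and 6364 in 7 d IR ventricles and 4381, 7636 and 3346 in 7 d sham ventricles, where replicate 81 exceeded the lowest IR array. The change was 0.06 at 2 d (95% interval -0.51 to 0.63, adjusted p = 0.932) and 0.74 at 7 d (95% interval 0.17 to 1.31, adjusted p = 0.0845). The 7 d change passed without replicate 81 (1.06, adjusted p = 0.0208).

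The dimmest probe set of Cxcl12 had 815, 569 and 507 in 2 d IR ventricles and 572, 150.0 and 782 in 2 d sham ventricles, of which replicate 72 was dim. It had 3671, 3912 and 2123 in 7 d IR ventricles, all above the 915, 1544 and 710.2 of 7 d sham ventricles. It rose 2.76-fold at 7 d (log2 change 1.47, SE 0.34, adjusted p = 0.0159). At 2 d the change was 0.36 (95% interval -0.37 to 1.08, adjusted p = 0.597), and the difference of the effects, 1.11 (SE 0.48, adjusted p = 0.642), did not pass. The 7 d call was kept in 9 of 12 fits that dropped a single array. It was lost without replicate 44 (1.36, adjusted p = 0.0613), 47 (1.31, 0.0611) or 82 (1.26, 0.0803), and without 69 and 82 together (1.26, 0.0665). The average over the days was 0.91 (adjusted p = 0.0146), and 0.73 (0.0941) without 69 and 82 together. The 3 probe sets therefore differ in their calls at 7 d; which transcript forms each reads was not analysed here.

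**Figure D4:**
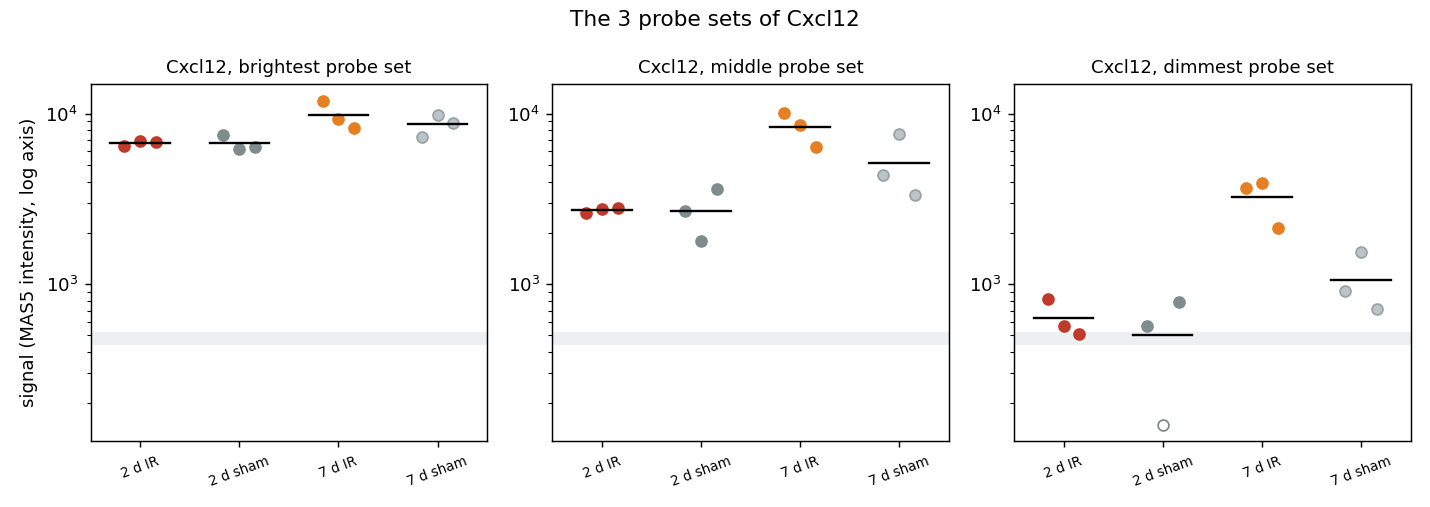
Signal (log axis) of the 3 Cxcl12 probe sets on each array in 2 d IR, 2 d sham, 7 d IR and 7 d sham ventricles, with open circles for dim arrays and bars for group means. In each of the 3 probe sets all 7 d IR arrays lie above all 2 d IR arrays, and in the dimmest alone they also lie above all 7 d sham arrays.

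Between the IR groups, Cxcl12 was higher at 7 d than at 2 d by the middle probe set (log2 change 1.53, SE 0.27, adjusted p = 0.00476) and by the dimmest (log2 change 2.03, SE 0.34, adjusted p = 0.00354), both kept in each of the 12 fits that dropped a single array. By the brightest the change was 0.52 (95% interval 0.21 to 0.83, adjusted p = 0.0634), which passed without replicate 48 (0.63, adjusted p = 0.0474). Of the 8 member genes, by their brightest probe sets, 0 were higher and 1 (Ccl2) was lower at 7 d than at 2 d in IR ventricles, against 2.45% and 0.997% of all probe sets. This comparison shares its 7 d IR arrays with the IR against sham comparison at 7 d. In sham ventricles, 7 d against 2 d, 0 of 8 members were called by limma (2 at an unadjusted p under 0.05), against 0.076% of all probe sets called. There the 3 Cxcl12 probe sets had changes of 0.35 (95% interval 0.05 to 0.66, adjusted p = 0.466), 0.85 (95% interval 0.28 to 1.42, adjusted p = 0.308) and 0.92 (95% interval 0.19 to 1.64, adjusted p = 0.413), in the order described. For 7 of 8 member genes the sham change was above 0, with a median of 0.33 against 0.00 over all probe sets, and in 1 (Ccl4) the sham arrays of the days did not overlap, against 7.27% of all probe sets.

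Markers of fibroblasts are set beside Cxcl12, which stromal cells are known to make. Of 12 fibroblast markers, 7 were called higher at 7 d in IR against sham ventricles, where 6.22% of all probe sets were, and 10 in 7 d IR against 2 d IR ventricles, where 2.45% were. At 2 d 1 was called higher in IR against sham ventricles, Fn1, against 1.88%. Their summed signal was 100800 to 119768 in 2 d IR and 79918 to 90354 in 2 d sham ventricles, and 228882 to 295738 in 7 d IR and 99096 to 181975 in 7 d sham ventricles, where the lowest array was replicate 82. The endothelial sum was 30501.6 to 31275.9 in 7 d IR and 26342.6 to 30113 in 7 d sham ventricles, with 1 of 9 markers (Esam) called higher, against 6.22% of all probe sets. The part of these cells in the Cxcl12 signal was not tested.

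The interaction of day and IR passed for 0 of the 8 members by limma (2, Ccl2 and Cxcl1, at an unadjusted p under 0.05), against 0.0095% of all probe sets. With 3 rats a group, the 95% intervals of this difference were wide, at -3.13 to -0.81 for Ccl2 and -3.69 to -0.59 for Cxcl1.

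Of 13 chemokine receptor genes on the array 10 were tested, and 0 were called by limma at 2 d (2 at an unadjusted p under 0.05) or at 7 d (1), against 2.47% and 12.1% of all probe sets called in either direction. The receptor list includes Cmklr1, which binds chemerin. The median change over the 10 was 0.24 at 2 d and 0.12 at 7 d. Cxcr1 was dim on all arrays, and Cxcr2, the Cxcl1 receptor, and Ccr3 were above the dim line on too few arrays to be tested. Cxcr2 had 428, 583 and 258 in 2 d IR ventricles and 127, 95.5 and 430.5 in 2 d sham ventricles, and of these replicate 73 alone was above the dim line.

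Ccr2, the Ccl2 receptor of monocytes, had 518, 511 and 517 in 2 d IR ventricles, against 199, 286 and 357 in 2 d sham ventricles, which were dim. The groups did not overlap, the increase was at least 1.12-fold, and the change of 0.59 (95% interval 0.09 to 1.09, adjusted p = 0.161) did not pass. Ccr1, a receptor of Ccl3 and Ccl5, had 978, 891 and 476 in 2 d IR ventricles, against 256, 440.5 and 362.5 in 2 d sham ventricles, again all dim. The groups did not overlap, the increase was at least 1.62-fold, and the change of 0.81 (0.23 to 1.39, adjusted p = 0.111) did not pass. Outside the 2 d IR group, Ccr2 was above the dim line on replicate 44 alone and Ccr1 on replicates 44 and 81. Both therefore met the filter for testing only with the 2 d IR arrays, and their missing overlap with a dim sham group is no separate support for an increase. Cx3cr1, the Cx3cl1 receptor, had 638, 725 and 477 in 2 d IR and 449.7, 401 and 464 in 2 d sham ventricles, without overlap (0.34, -0.01 to 0.70, adjusted p = 0.253). Ccr4 had 233, 299 and 423.5 in 2 d IR ventricles, all dim, and 433, 525 and 628 in 2 d sham ventricles, where replicate 71 was dim. Here the 2 d IR arrays were the lower ones, with a bound of 1.10-fold between the group means, and the change of -0.50 (-1.08 to 0.08, adjusted p = 0.307) did not pass. Ccr4 was above the dim line on the sham replicates 72, 74, 80 and 82 alone. It met the filter for testing only with sham arrays, so its missing overlap is no separate support for a decrease. Cxcr3, Cxcr5, Ackr2 and Cmklr1 had changes of -0.30 to 0.33 at 2 d and -0.41 to 0.31 at 7 d, none past the test.

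The receptors of Cxcl12 are Cxcr4, which signals through G proteins, and Ackr3, which takes the ligand up. Ackr3 had 2229, 2077 and 2038 in 2 d IR and 2561, 2036 and 2328 in 2 d sham ventricles. It had 4154.5, 3661 and 3889 in 7 d IR and 2659.8, 3211 and 3121 in 7 d sham ventricles, and every 7 d IR array was above all others. In 7 d IR against 2 d IR ventricles Ackr3 rose (log2 change 0.83, SE 0.12, adjusted p = 0.0018), kept in each of the 12 fits that dropped a single array. It was the only receptor called there, 1 of 10 tested, against 2.45% of all probe sets called higher. Its 7 d sham arrays also lay above its 2 d sham arrays without overlap, as did 7.27% of all probe sets, and 0 receptors were called between the sham groups. The change of Ackr3 in 7 d IR against 7 d sham ventricles was 0.36 (95% interval 0.10 to 0.62, adjusted p = 0.065). Cxcr4 has 3 probe sets with 7 d changes of 0.24 (adjusted p = 0.477) for the brightest, 0.41 (0.221) for the middle one and 0.70 (0.0581) for the dimmest. For the dimmest the signals were 1266.5, 897 and 1851 in 7 d IR and 520.0, 802 and 885 in 7 d sham ventricles, without overlap, and the average over both days passed (0.50, adjusted p = 0.0345).

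**Figure D5:**
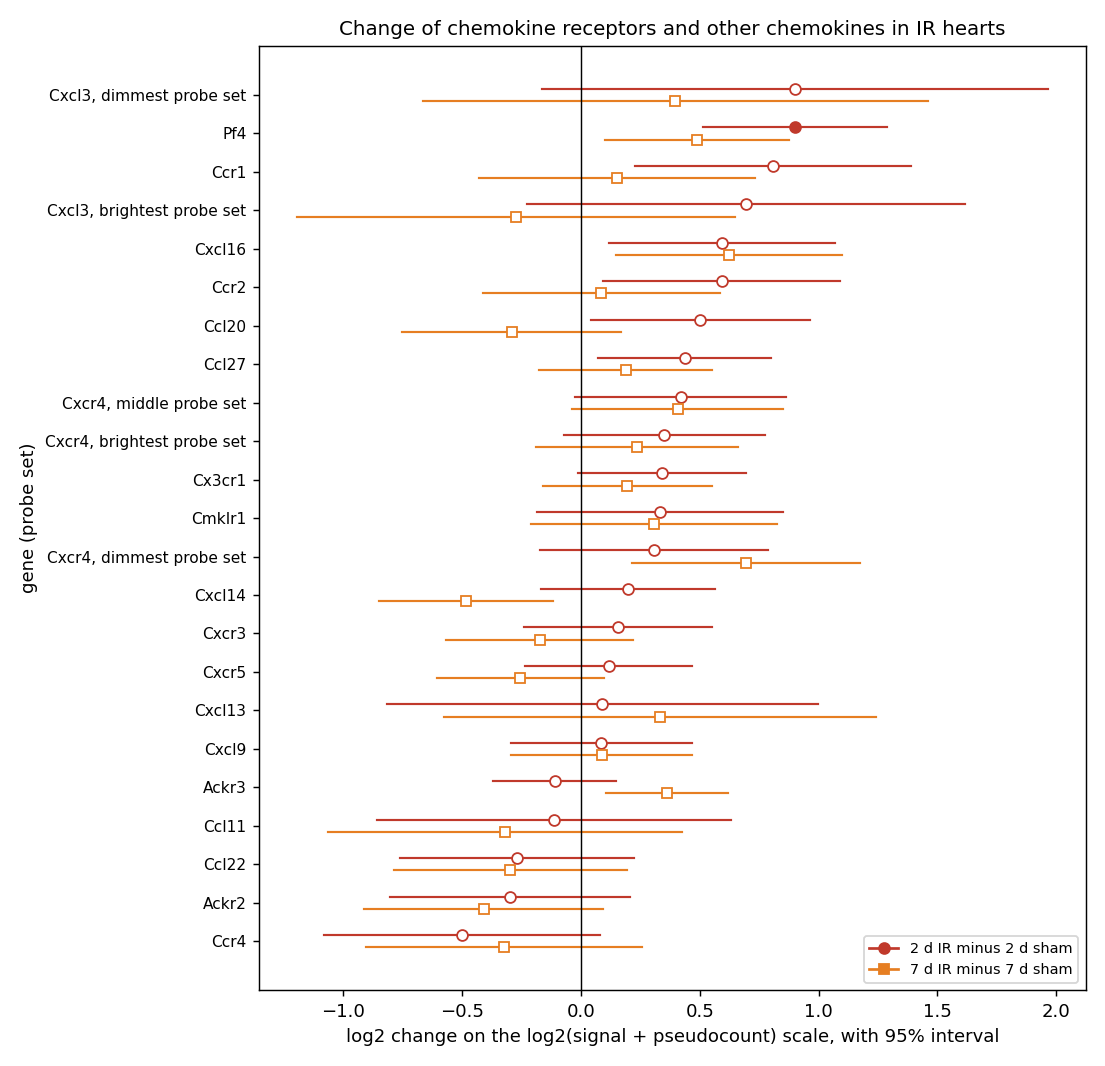
Log2 change of each tested probe set of the receptors and of the other chemokines, IR minus sham, at 2 d (circles) and 7 d (squares), with 95% intervals; filled markers passed the test. Pf4 at 2 d (0.90) is filled and no receptor is; Ccr1 and Ccr2 lie at 0.81 and 0.59 at 2 d.

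Of 16 other chemokine genes on the array 10 were tested; 1 was called higher at 2 d and 0 at 7 d by limma (3 at an unadjusted p under 0.05), against 1.88% and 6.22% of all probe sets. The gene called was Pf4, a chemokine of platelets that some macrophages also make, with 6997, 4412 and 4603 in 2 d IR and 2977, 2494 and 2667 in 2 d sham ventricles, without overlap. Pf4 rose by 0.90 on the log2 scale at 2 d (SE 0.18, adjusted p = 0.0274). The call was kept in 8 of 12 fits that dropped a single array and lost without replicate 69 (0.70, adjusted p = 0.148), 71 (0.97, 0.0709), 72 (0.85, 0.0995) or 74 (0.89, 0.0559), and without 69 and 82 together (0.70, 0.0786). At 7 d its change was 0.49 (95% interval 0.10 to 0.87, adjusted p = 0.0928). Averaged over both days, Pf4 (0.69, adjusted p = 0.0028) and Cxcl16 (0.61, 0.0136), a membrane-bound chemokine, passed. These were 2 of the 10 tested, against 12.4% of all probe sets called higher in that average.

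Cxcl13, which draws B cells, differed by day. It had 8379.9, 2666.5 and 1966 in 7 d IR and 629.5, 495 and 497 in 2 d IR ventricles, a rise of 2.36 on the log2 scale (SE 0.43, adjusted p = 0.0059) that was kept in each of the 12 fits that dropped a single array. It also had 1905, 5684 and 1957 in 7 d sham and 545, 411 and 533.5 in 2 d sham ventricles, without overlap (2.11, adjusted p = 0.112). Its change between IR and sham was 0.09 at 2 d (adjusted p = 0.939) and 0.33 at 7 d (0.659). Ccl20, Ccl22, Ccl11, Ccl27, Cxcl3, Cxcl9 and Cxcl14 had changes of -0.27 to 0.69 at 2 d and -0.48 to 0.19 at 7 d by their brightest probe sets, with no call. The dimmer of the tested Cxcl3 probe sets had 0.90 at 2 d (adjusted p = 0.317) and 0.40 at 7 d (0.652), but it was dim on every sham array, and no fold is given. The remaining Cxcl3 probe sets were dim on all arrays and were not tested. Cxcl2, Ccl17, Ccl28 and Xcl1 were dim on all arrays. Cxcl6 and Ppbp were above the dim line on 1 array each: Cxcl6 on replicate 44 (7 d IR), at 2166 against 42.4 to 382.3 elsewhere, and Ppbp on replicate 76 (2 d IR).

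Enzymes that cut or shed chemokines were followed as a list of 8 genes on the array. Of 6 tested, 2 were called higher at 2 d, namely Mmp12, a protease of macrophages (log2 change 1.88, adjusted p = 0.042), and Mmp14, a membrane-bound protease (1.24, 0.0473). At 7 d 3 were called higher, namely Mmp14 (1.39, 0.0131), Mmp2 (1.24, 0.0073) and Adam10, which sheds Cx3cl1 (0.69, 0.017). Over all probe sets 1.88% were called higher at 2 d and 6.22% at 7 d. The other Mmp2 probe set (-0.09, adjusted p = 0.831) and the other Adam10 probe set (0.52, 0.135) did not pass at 7 d. The 2 d calls of Mmp12 and Mmp14 were kept in 7 and 4 of 12 fits that dropped a single array, and the 7 d call of Mmp14 in 11, lost without replicate 44 (1.27, 0.0531). The 2 d Mmp12 call was lost without replicate 69 (1.44, 0.227), 76 (1.70, 0.0856), 71 (1.92, 0.108), 72 (2.14, 0.0858) or 74 (1.59, 0.101). The 2 d Mmp14 call was lost without replicate 69 (1.14, 0.232), 76 (1.26, 0.0784), 71 (1.12, 0.136), 72 (1.14, 0.163), 74 (1.46, 0.0519), 44 (1.24, 0.0505), 47 (1.24, 0.062) or 48 (1.24, 0.0552). Dpp4, which clips Cxcl12, had -0.38 at 2 d (adjusted p = 0.261) and -0.46 at 7 d (0.123). Adam17, which sheds Cx3cl1, had 0.31 at 2 d (0.186), and Mmp12 had 0.72 at 7 d (0.307). Averaged over both days, 4 were called higher (Mmp14, Adam17, Mmp12 and Mmp2) and 1 lower (Dpp4). Over all probe sets 12.4% were called higher in that average, and 2414 of 10527 were called in either direction.

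Of 16 tested genes of signalling downstream of chemokine receptors, 1 was called higher at 2 d and 5 at 7 d, against 1.88% and 6.22% of all probe sets, and 0 lower. All 16 changes were above 0 on each day, with medians of 0.32 at 2 d and 0.44 at 7 d, against 0.00 and 0.01 over all probe sets tested. Rhoa, a regulator of the actin cytoskeleton, was called at 2 d (log2 change 0.92, adjusted p = 0.0176, and so on in this order) by the brighter of its 2 probe sets; by that probe set its change at 7 d was 0.28 (0.295), while the other passed at 7 d (0.74, 0.0152) and had 0.44 (0.155) at 2 d. Those called at 7 d were Plcb3, a phospholipase (1.38, 0.0287), Arrb2, an arrestin that switches receptors off (1.21, 0.0497), and the G protein subunit genes Gnb1 (0.54, 0.0135), Gnai2 (0.52, 0.0362) and Gnb2 (0.50, 0.0427). Among those not called were Plcb3 at 2 d (0.96, 0.155), Rac2 at 2 d (0.92, 0.0527), and Pik3cd at 7 d (1.05, 0.0637).

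Of 17 tested inducers of chemokine transcription, 0 were called at 2 d by limma (7 at an unadjusted p under 0.05) and 3 were called higher at 7 d, against 1.88% and 6.22% of all probe sets called higher. The 3 were Tnfrsf1a, the receptor of tumour necrosis factor (log2 change 0.77, adjusted p = 0.0244, and so on in this order), Myd88, an adaptor of Toll-like receptors (0.62, 0.046), and Irf1, a transcription factor of the interferon response (0.48, 0.031). Of those not called on either day, Hif1a, the gene of a transcription factor stabilised by low oxygen, had 0.71 at 2 d (0.16) and 0.70 at 7 d (0.118). Il1b, the gene of an interleukin that induces many chemokines, had 0.58 at 7 d (0.278). Averaged over both days, 5 of the 17 were called higher, against 12.4% of all probe sets. Hif1a and Ifngr1 were among them, with the 3 called at 7 d.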

How the data were processed

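Per the submitters' processing notes the authors made the values with MAS5, and each deposited number is a probe set's intensity, not logged; the version and detection calls are not stated there. The mean of each array, trimmed by 2% of probe sets on either side, came to 1500.41 to 1500.51, so the deposited intensities were scaled per array; signals ran from 0.4 to 90742.8. No 2 arrays held identical values. To the signal 195.45 was added (the 20th percentile of an array, median over arrays) before log2 was taken, which understates the changes of genes near background. Of 15923 probe sets, 57 were controls and were dropped, and the 10527 above the array's 40th percentile on at least 3 arrays were tested. All 12 arrays entered one model of group means in limma 3.58.1 under R 4.3.3 (empirical Bayes moderation with a trend on intensity), two-sided, with Benjamini-Hochberg adjustment over the 10527 probe sets and a threshold of 0.05; the code was tested on simulated data. Where a group is dim on all its arrays, a fold is a bound against the dim line or, if higher, the probe set's own signal. Such a bound compares group means and leaves out the spread between rats.

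Gene symbols are those of the platform annotation (12789 probe sets with 1 symbol, 312 with several, 2822 unnamed here), of which 12754 were found in the RefSeq table of GRCr8 and 0 changed. In counts a gene is represented by its brightest probe set on the log2 scale. All probe sets of the members are named, with every receptor and other chemokine on the array. Of the other lists, up to 4 called genes and up to 2 not called, by size of change, are named per comparison, and of marker lists counts and sums. Members and lists were chosen with earlier results of these data known. Promoters were matched for 6 of 10 members; the number of arrays limits the precision, and no batch is stated. In the written design the 7 d sham animals appear under 2 entries and no 2 d sham group does, and groups were taken from each sample's own labels. Alternatives changed the pseudocount, filter, scaling, trend, control group and arrays used.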

Additional observations from a re-analysis of the deposited data

How the results depend on the processing

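No paired analysis was possible because the groups share no replicate numbers. With 3 rats a group, single arrays decide most calls at 2 d, and signals near the dim line limit Cxcl1, Cxcl10, Ccl3, Ccl4 and most receptors. With an array left out, probe sets called ran from 2 to 515 (260 with all arrays) for IR against sham at 2 d, 175 to 1463 (1271) at 7 d, 0 to 6 (1) for the difference of the effects, 1572 to 2439 (2414) for the average, 1 to 76 (8) for sham 7 d against 2 d and 192 to 439 (363) for IR 7 d against 2 d. Members called ran from 0 to 3 at 2 d, 1 to 1 at 7 d, 0 to 0 for the difference, 1 to 2 for the average, 0 to 0 in sham and 0 to 2 in IR over the days. Without replicates 69 and 82 together, 70, 541, 0, 1039, 83 and 556 probe sets were called in that order, and 1 member at 2 d and 2 in IR over the days. With no filter, 77 probe sets and 0 members were called at 2 d, 0 probe sets for the difference, 1 in sham and 0 members in IR over the days. With no trend these were 68 and 0, 0, 2 and 0, with 2 members for the average. With the other day's sham as control, 75 probe sets and 0 members were called at 2 d and 2505 and 3 at 7 d; with both sham groups, 1 member at 2 d and 2545 probe sets at 7 d. With 4 times the pseudocount, 1 member was called at 2 d, 2 for the average, 2 probe sets for the difference and 4 in sham. Members called for the average were 2 with the pseudocount divided by 2 and 3 with a filter at the median, and in IR over the days 0 with the pseudocount divided by 2 and 2 with quantile normalization. The causes were not tested.

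Log2 changes that turned their sign were all of results not called. With the other day's sham, 2 d changes became -0.35 for Cxcl12 (-0.79 for its middle and -0.56 for its dimmest probe set) and 0.16 for Ccl5, and 7 d changes 0.26 for Ccl2, -0.16 for Ccl5, 0.29 for Ccl3 and 1.14 for Cxcl1. With both sham groups they were -0.17 (-0.36, -0.10) and 0.0356, and 0.0267, -0.0330, 0.13 and 0.56. Median centring gave -0.0510 for Cxcl12 at 2 d and -0.0460 for Ccl5 on average, where quantile normalization gave -0.0405. Without 69 and 82 together, Ccl5 at 2 d was 0.10, Ccl3 on average -0.0425, Cx3cl1 in sham -0.0487 and Ccl3 in IR over the days 0.16. With an array left out, ranges that cross 0 were, at 2 d, -0.0484 to 0.0893 for Cxcl12 (-0.19 to 0.29, -0.0864 to 0.66) and -0.24 to 0.10 for Ccl5. At 7 d they were -0.73 to 0.22 for Ccl2, -0.0537 to 0.24 for Ccl5, -0.21 to 0.0734 for Ccl3 and -0.69 to 0.44 for Cxcl1. For the difference they were -0.10 to 0.16 for Cx3cl1 and -0.0013 to 0.34 for Ccl5, for the average -0.0735 to 0.095 for Ccl5, and in sham -0.0487 to 0.21 for Cx3cl1. In IR over the days they were -0.0135 to 0.23 for Cx3cl1, -0.26 to 0.0530 for Ccl5, -0.23 to 0.16 for Ccl3 and -0.0604 to 0.0180 for Ccl4.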
